A study of Mus musculus with 9 samples.

Results

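The genes described here are the Toll-like receptors Tlr2, Tlr3, Tlr4, Tlr7, Tlr9 and Tlr13, the co-receptors Cd14 and Ly96, and the adaptor Myd88. They were found by symbol in the gene lists of the count matrices and make up 9 of 31053 genes, and all 9 had UMIs, each a captured mRNA molecule, in microglia-like cells. Living CD11b+ cells, the myeloid cells of the brain, were sorted from whole brains without cerebellum of 5-month-old female C57BL/6 mice (C57BL/6J in the study's methods) and sequenced as 9 libraries. The 3 Ctrl libraries each came from 1 untreated mouse. The 3 D0 libraries each pooled 2 brains after 14 days on a diet with 1200 mg/kg PLX5622, an inhibitor of CSF1R, the receptor on which microglia depend for survival. The 3 D2 libraries each pooled 2 brains of mice that had the same diet and were then given control diet for 2 days. The library D2-3, which the study set aside, is left out of the comparisons and given apart, so that 8 libraries remain.

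Toll-like receptors recognise microbial molecules and products of damaged cells. TLR2, a receptor for lipoproteins, and TLR4, the receptor for lipopolysaccharide, act at the cell surface, while TLR3, TLR7, TLR9 and TLR13 sense nucleic acids inside endosomes. CD14 delivers lipopolysaccharide to MD-2, the Ly96 protein, which is bound to TLR4, and MYD88 links every one of these receptors except TLR3 to kinases that activate NF-κB. In the brain, microglia and the macrophages of its borders are the cells best known for carrying them.

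In the GENCODE annotation of GRCm38 all 9 genes are protein coding. Tlr2 (ENSMUSG00000027995) lies at chr3:83836272-83841767 on the minus strand and Tlr4 (ENSMUSG00000039005) at chr4:66827584-66930284 on the plus strand. Of the endosomal receptors, Tlr3 lies at chr8:45395665-45411080, Tlr7 at chrX:167304929-167330558, Tlr9 at chr9:106222598-106226883 and Tlr13 (ENSMUSG00000033777) at chrX:106143204-106160493. Ly96 lies at chr1:16688051-16709611 and Myd88 at chr9:119335934-119341411. The stretches of RefSeq promoter upstream of every annotated exon are shown for Tlr2, the receptor that was higher after PLX5622, and Tlr13, the one of the 9 with the deepest fall, with a match to the NF-κB letters in capitals:
Tlr2, chr3:83841768-83841858, minus strand: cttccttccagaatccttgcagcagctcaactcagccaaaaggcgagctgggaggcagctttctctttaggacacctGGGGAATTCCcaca
Tlr13, chrX:106143025-106143203, plus strand: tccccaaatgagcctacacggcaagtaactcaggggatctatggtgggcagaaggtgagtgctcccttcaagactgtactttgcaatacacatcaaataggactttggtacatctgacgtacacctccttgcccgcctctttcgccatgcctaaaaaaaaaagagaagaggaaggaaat
The NF-κB letters, GGG and TTCC with 3 bases between them, matched in the Tlr2 stretch at chr3:83841772-83841781, 5 bases from the annotated start of the gene. Promoter windows were listed for 5 of the 9 genes. In the 250 bases before the start these letters were found on either strand for Tlr2 and Tlr3, and in 4.65% of all 32851 promoters. Those of AP-1 (TGANTCA) were found for Tlr9 and in 6.75% of all, and those of the interferon response element (GAAA and GAAA with 2 bases between them) for Myd88 and in 2.98% of all. The letters GAGGAAGT, for PU.1, were in 2.44% of all promoters and in none of the 5. A match of letters is a description and says nothing of binding in these cells.

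The libraries held 2875 to 5721 barcodes and 20257894 to 61230741 UMIs, and 28655 cells of the 8 libraries were kept, of which 21785 were microglia-like by their clusters. All 13 microglia markers were detected in every microglia-like sum. Their summed level was 43154 to 49822 CPM in Ctrl, against 33704 to 36844 in D0 and 28893 to 29809 for D2. CPM are UMIs relative to all UMIs summed over the same cells of that library. The 11 neutrophil markers summed to 7.09 to 19.5 CPM in Ctrl (up to 4 of them at 0), against 57.6 to 209.6 in D0 and 54.3 to 206 for D2. Monocyte markers, also 11, summed to 26.0 to 29.6, 31.6 to 41.1 and 46.5 to 55.2 CPM. The 8 genes of dividing cells summed to 9.49 to 20.3 CPM in Ctrl, against 558 to 665 in D0 and 799.8 to 853 for D2. The 11 genes that rise when cells are freed from tissue summed to 8824 to 13295, 8138 to 12725 and 8378 to 9941 CPM, ranges that overlap. D2-3 had 640 microglia-like cells against 1525 to 3717 in the other libraries, and 559 of them were in dividing clusters. No more than 7 kept barcodes were shared by any 2 libraries. By their headers, 6 libraries (Ctrl-1 and all of D0, D2-1 and D2-2) were counted with Cell Ranger 3.0.2 and the other 3 with 3.1.0. The version is thus in part confounded with the group. A fit with a term for the version sets the D0 and D2 libraries against Ctrl-1 alone.

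In microglia-like cells, D0 was compared with Ctrl to ask how the receptors stood in the cells that outlast PLX5622, and D2 with Ctrl to ask the same in the first days after its removal. Tlr2 rose in D0, from a mean of 91.5 ± 26.5 to 208 ± 73.6 CPM scaled between libraries (SD, n = 3 each), and so did Cd14, from 321 ± 59.0 to 530.1 ± 92.0, while Tlr13, Tlr4, Tlr3 and Myd88 fell. Tlr13, Tlr4 and Myd88 also fell in D2, where Tlr2 and Cd14 were above all Ctrl libraries without passing the test. Tlr7, Tlr9 and Ly96 did not pass it in either comparison. In D0, 2 members were called higher and 4 lower of 9 at an adjusted p under 0.05, where 12.4% of the 12395 genes tested were called higher and 7.45% lower (19.8% in all). In D2, 0 members were called higher and 3 lower, where 10.8% and 7.76% of all genes were (18.6% in all), and 2 members were higher at an unadjusted p under 0.05 by edgeR. DESeq2 called 1 member higher in D2. Libraries of D0 and Ctrl did not overlap for the same 2 members above and 4 below, beside 18.9% and 19.7% of all genes (38.6% in all), and D2 and Ctrl did not for 3 members above and 4 below, beside 23.3% and 25.8% (49.1% in all). The median log2 fold change of the 9 was -0.30 in D0 and -0.13 in D2, beside -0.053 and -0.028 over all genes tested. Since the diet removes most microglia, a change of level within cells and a loss of cells that had another level cannot be told apart.

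**Figure D1:**
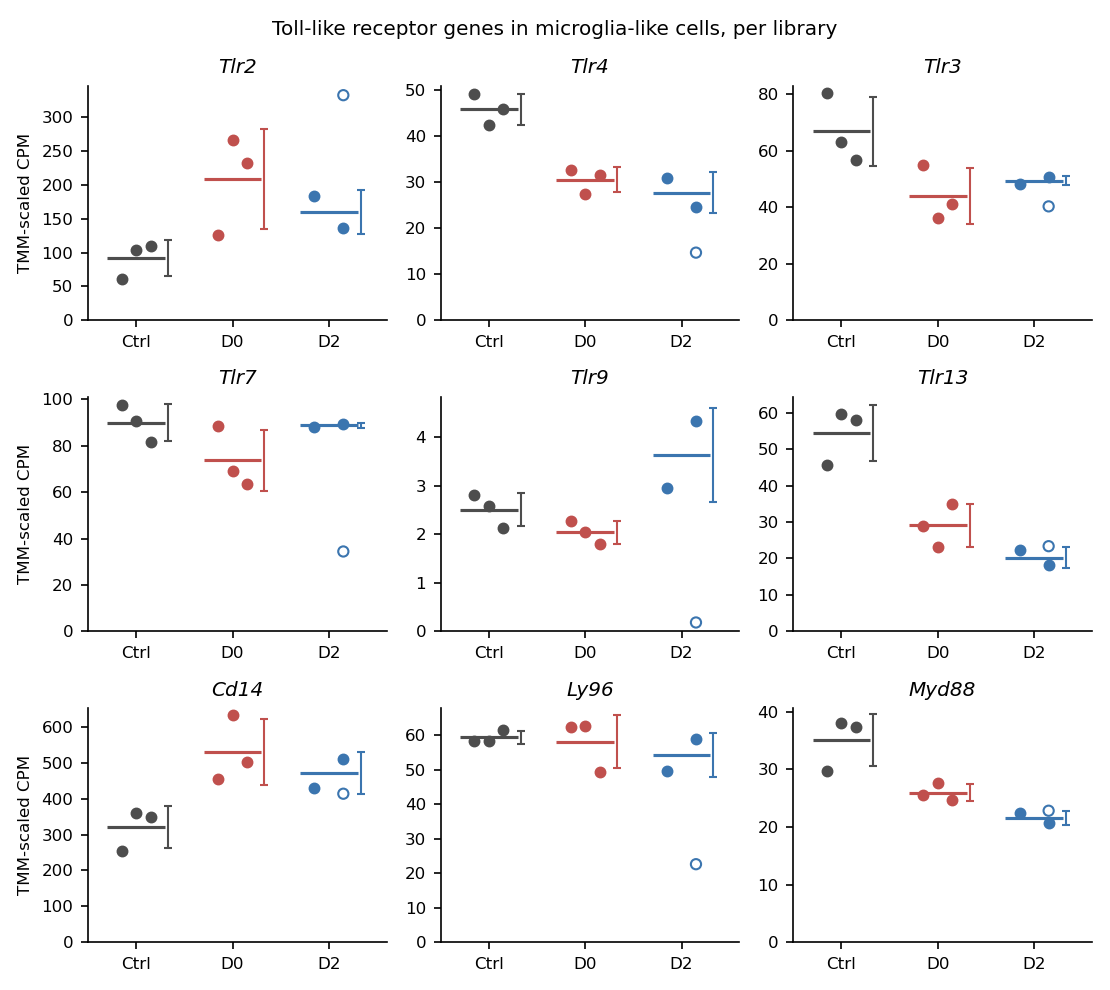
TMM-scaled CPM of the 9 genes in the microglia-like cells of each library, with a panel per gene, a line at the mean and a bar of 1 SD to each side. Filled points are the 8 libraries compared and the open circle is D2-3. All D0 points of Tlr2 and Cd14 sit above all Ctrl points, and those of Tlr4, Tlr3, Tlr13 and Myd88 sit below.

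Levels between libraries are given as TMM-scaled CPM, in which a factor per library offsets differences in RNA composition. With library totals in place of TMM the median log2 fold change of all genes was -0.26 in D0 and -0.14 in D2, against -0.053 and -0.028 with TMM, and 30.1% of the calls in D0 were upward, against 62.4% with TMM (42.4% against 58.3% in D2). The members called in D0 and D2 kept their direction under each of the 22 alternatives run.

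Tlr2 was at 61.2, 103 and 110.1 TMM-scaled CPM in the Ctrl libraries, at 125, 266 and 232 in D0 and at 183 and 136 in D2. Every D0 and D2 library was above every Ctrl library, and D0-1 was the closest to Ctrl. The log2 fold change in D0 was 1.19 ± 0.30 (SE; adjusted p = 0.0221, edgeR quasi-likelihood test), and in D2 it was 0.80 ± 0.32 (adjusted p = 0.117). The call in D0 was lost without D0-2 (adjusted p = 0.0884), without D0-3 (adjusted p = 0.0623) and with D2-3 (adjusted p = 0.167), and it held with a term for the Cell Ranger version (1.77 ± 0.39, adjusted p = 0.0257). Within version 3.0.2 the only Ctrl library is Ctrl-1, which had the lowest Tlr2.

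Tlr4, the other surface receptor, was at 49.2, 42.5 and 45.9 TMM-scaled CPM in Ctrl, at 32.7, 27.4 and 31.6 in D0 and at 30.9 and 24.6 in D2. No D0 or D2 library reached the lowest Ctrl library. It fell by 0.59 ± 0.13 on the log2 scale in D0 (SE; adjusted p = 0.0127, edgeR) and by 0.72 ± 0.15 in D2 (adjusted p = 0.00876). The surface receptors thus stood on opposite sides of Ctrl. The call was lost in D0 without D0-2 (adjusted p = 0.0658) and with D2-3 (adjusted p = 0.293), and in D2 without D2-2 (adjusted p = 0.0857).

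Tlr13, a sensor of bacterial ribosomal RNA, showed the deepest fall of the 9. It was at 45.6, 59.5 and 58.1 TMM-scaled CPM in Ctrl, at 28.9, 23.2 and 34.97 in D0 and at 22.3 and 18.1 in D2. The 3 groups did not overlap, with D2 below D0. The log2 fold change was -0.91 ± 0.17 in D0 (SE; adjusted p = 0.00664, edgeR) and -1.42 ± 0.21 in D2 (adjusted p = 0.00139), and that between D2 and D0 was -0.51 ± 0.20 (adjusted p = 0.701). Of the 22 alternatives, D2 was called in 22 and D0 in 21. The exception was the fit with a term for the version (-0.655 ± 0.21). That fit leaves Ctrl-1, which had the lowest Tlr13 in Ctrl, as the only Ctrl library.

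Tlr3, a receptor for viral RNA, was at 80.5, 63.2 and 56.7 TMM-scaled CPM in Ctrl, at 55.1, 36.1 and 41.1 in D0 and at 48.3 and 50.5 in D2. No D0 or D2 library reached the lowest Ctrl library, but Ctrl-3 and D0-1 were close, and D2 lay within the range of D0. It fell by 0.60 ± 0.18 on the log2 scale in D0 (SE; adjusted p = 0.0426, edgeR), a call kept in 10 of 22 alternatives and lost on leaving out any 1 library but D0-1 (largest adjusted p = 0.160 among these, without D0-2). In D2 the log2 fold change was -0.44 ± 0.20 (adjusted p = 0.168). The 7 astroglial markers, of cells with high Tlr3, summed to 168 to 184 CPM in the microglia-like cells of Ctrl, against 82.5 to 106 in D0 and 86.1 to 101 for D2, which corresponds to at most 1.53 CPM of Tlr3.

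Tlr7, a receptor for RNA, was at 97.4, 90.6 and 81.7 TMM-scaled CPM in Ctrl, at 88.6, 69.1 and 63.5 in D0 and at 88.0 and 89.5 in D2, with overlapping groups. Its log2 fold change was -0.29 ± 0.14 in D0 (SE; adjusted p = 0.179, edgeR) and -0.02 ± 0.16 in D2 (adjusted p = 0.948). It was called lower in D0 without D0-1 (-0.44 ± 0.12, adjusted p = 0.0364) and with library totals in place of TMM (adjusted p = 0.0444). Tlr9, the receptor for unmethylated DNA, was the lowest of the 9, at 2.80, 2.58 and 2.13 TMM-scaled CPM in Ctrl, 2.27, 2.05 and 1.79 in D0 and 2.95 and 4.32 in D2. It was not called in any comparison or alternative.

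Cd14 was the highest of the 9, at 253, 361 and 349 TMM-scaled CPM in Ctrl, 455, 633 and 503 in D0 and 429 and 511 in D2. All treated libraries were above all Ctrl libraries. The log2 fold change was 0.72 ± 0.17 in D0 (SE; adjusted p = 0.0177, edgeR), a call lost without D0-2 (adjusted p = 0.0749) and with D2-3 (adjusted p = 0.102). In D2 it was 0.55 ± 0.19 (adjusted p = 0.0728, edgeR), which passed with DESeq2 (adjusted p = 0.0394). With the version as a term it was 0.89 ± 0.21. That fit leaves Ctrl-1, which had the lowest Cd14 in Ctrl, as the only Ctrl library. RNA of other cells was estimated beside Tlr2 and Cd14, at the mean level of each type over libraries and not the level of each library. On that basis the monocyte markers correspond to at most 5.21 CPM of Cd14 and 1.64 CPM of Tlr2. Those of neutrophils correspond to at most 0.354 and 0.140 CPM. RNA of dendritic cells was not estimated.

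Ly96 was at 58.3, 58.2 and 61.5 TMM-scaled CPM in Ctrl, at 62.3, 62.6 and 49.3 in D0 and at 49.7 and 58.8 in D2, so the groups overlapped. Its log2 fold change was -0.03 ± 0.13 in D0 (SE; adjusted p = 0.890, edgeR) and -0.13 ± 0.14 in D2 (adjusted p = 0.568). Myd88 was at 29.8, 38.1 and 37.4 TMM-scaled CPM in Ctrl, at 25.5, 27.6 and 24.7 in D0 and at 22.5 and 20.7 in D2, without overlap. It fell by 0.43 ± 0.13 on the log2 scale in D0 (adjusted p = 0.0427) and by 0.70 ± 0.15 in D2 (adjusted p = 0.0103). The D0 call was kept in 9 of 22 alternatives and lost without any 1 library but Ctrl-1 (largest adjusted p = 0.156 among these, without Ctrl-3). The version as a term took the change to -0.20 ± 0.14. That fit leaves Ctrl-1, which had the lowest Myd88 in Ctrl, as the only Ctrl library. In D2 the call was lost without D2-1 (adjusted p = 0.0510), without D2-2 (adjusted p = 0.0831) and with the version as a term (adjusted p = 0.101).

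**Figure D2:**
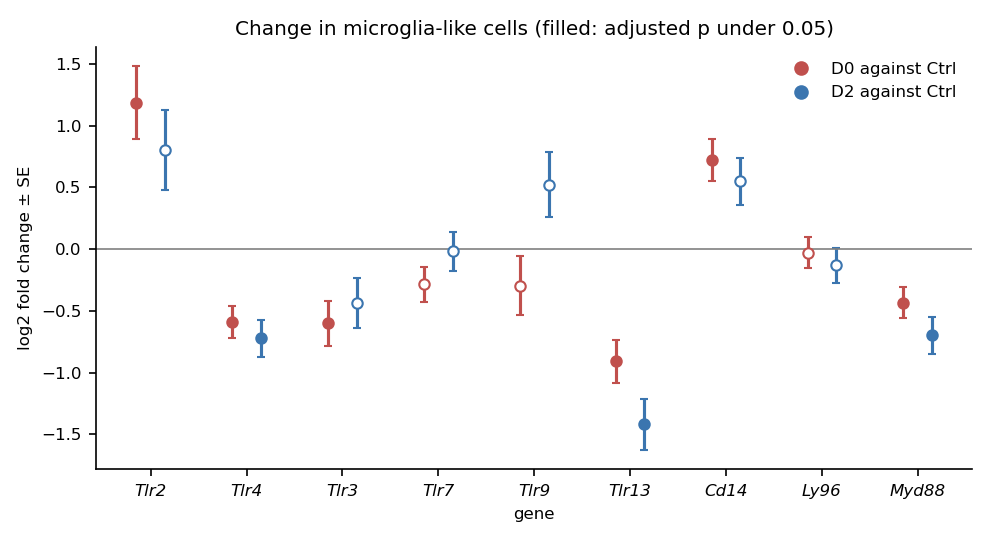
Log2 fold change with its SE for each gene in microglia-like cells, for D0 (red) and D2 (blue) against Ctrl. Filled points passed an adjusted p of 0.05 in edgeR. Tlr2 and Cd14 lie above 0 in both comparisons, and Tlr4, Tlr3, Tlr13 and Myd88 lie below 0 in both.

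Between D2 and D0, edgeR called 0 of the 9 members, and 0 of all 12395 genes, of which 840 had an unadjusted p under 0.05. DESeq2 called 27 genes, none of them a member. Tlr9 (0.82 ± 0.26 on the log2 scale, adjusted p = 0.701) and Tlr13 had an unadjusted p under 0.05. Libraries of D2 and D0 did not overlap for 1 member above, Tlr9, and 2 below, Tlr13 and Myd88, beside 11.3% and 12.9% of all genes (24.2% in all).

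The 2 surface receptors were then set against the 4 endosomal ones as a share of the UMIs of the 6, which needs no scaling between libraries. The surface share was 32.8%, 40.3% and 44.0% in Ctrl, 47.5%, 69.3% and 65.1% in D0 and 56.9% and 49.8% in D2. Every D0 and D2 library was above every Ctrl library, and D0-1 exceeded Ctrl-3 by the least. The means were 39.0% ± 5.72 (SD, n = 3), 60.6% ± 11.6 (SD, n = 3) and 53.4% ± 5.06 (SD, n = 2), and no test was run on this sum over chosen genes. Within each group the libraries stood in the same order by this share as by the genes that rise when cells are freed from tissue. Those genes summed to 8824, 12503 and 13295 CPM in Ctrl, 8138, 12725 and 12109 in D0 and 9941 and 8378 in D2. D2-3 broke that order, with 2422 CPM and a share of 77.9%. A link was not tested. On the CPM scale the endosomal sum was 256, 224 and 209.7 in Ctrl, 169.5, 117 and 132 in D0 and 164 and 159 in D2. The surface sums on this scale overlapped between Ctrl (125 to 165) and D0 (153 to 263). Both sums carry no factor between libraries, and the TMM factors (1.04 to 1.13 in Ctrl, 0.8968 to 0.9695 in D0) place D0 higher relative to Ctrl. Tlr2 alone did not overlap between Ctrl and D0, whether scaled by them or not, while Tlr4, the other gene of the surface sum, was lower in D0. Tlr2 alone made up 18.2% to 31.0% of the 6 receptors in Ctrl and 37.7% to 62.8% in D0, and Tlr13 13.5% to 16.5% and 5.48% to 8.69%.

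**Figure D3:**
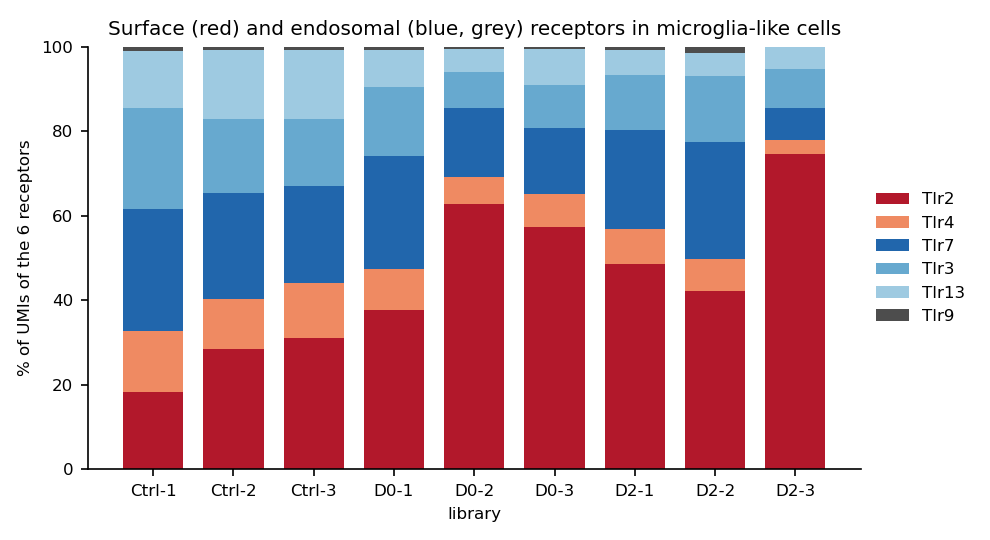
Share of each of 6 receptors in their summed UMIs in the microglia-like cells of each library, in percent. Red parts are surface receptors, blue and grey parts are endosomal ones. The red parts reach at most 44.0% in Ctrl, at least 47.5% in D0, 56.9% in D2-1, 49.8% in D2-2 and 77.9% in D2-3.

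Levels by cell type were taken as CPM of the UMIs summed per library and type, in libraries with at least 20 cells of the type, and are given as a description with no test. The clusters were drawn without the 9 genes. The level that leaked microglial RNA would give was estimated for each type from 4 microglia genes (P2ry12, Tmem119, Gpr34 and Olfml3). It counts all RNA of these genes as leaked, so a type's own expression of them, or microglia placed in it, would raise it. For Tlr3 it was 27.9 CPM in border-associated macrophage-like cells, against 2.62 in monocyte-like, 3.69 in dendritic cell-like, 3.50 in endothelial-like and 7.52 in neutrophil-like cells. In the first type it cannot separate leaked from own RNA.

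Tlr2 was at 239 ± 116 CPM (SD, n = 7) in neutrophil-like, 235 ± 93.2 (n = 7) in monocyte-like, 176 ± 76.8 (n = 7) in dendritic cell-like, 158 ± 35.7 (n = 5) in border-associated macrophage-like and 149 ± 58.7 (n = 8) in microglia-like cells. No neighbours in that order differed by more than their spread, which includes the differences between Ctrl, D0 and D2. Within libraries Tlr2 was above microglia-like cells in 5 of 7 for neutrophil-like and 6 of 7 for monocyte-like cells. For dendritic cell-like cells Tlr2 was above in 3 of 7, and for border-associated macrophage-like cells in 5 of 5. Endothelial-like cells, which should hold little of it, were at 17.3 ± 13.2 CPM (n = 8), of which leaked RNA was estimated to give 59.1%. Cd14 was at 745 ± 305 CPM (n = 7) in monocyte-like, 603 ± 346 (n = 7) in neutrophil-like, 595 ± 113 (n = 5) in border-associated macrophage-like, 430.3 ± 86.9 (n = 8) in microglia-like and 261 ± 110.4 (n = 7) in dendritic cell-like cells. The first 3 did not differ beyond their spread, and the next gaps exceeded it. It was above microglia-like cells in 7 of 7 libraries in monocyte-like cells, in 5 of 5 in border-associated macrophage-like cells and in 4 of 7 in neutrophil-like cells.

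Tlr4 was highest in macrophages, at 45.1 ± 16.3 CPM (SD, n = 5) in border-associated macrophage-like and 36.2 ± 11.7 (n = 8) in microglia-like cells, which did not differ beyond their spread. Neutrophil-like cells were at 19.5 ± 9.22 CPM (n = 7), monocyte-like at 11.7 ± 9.51 (n = 7) and dendritic cell-like at 6.24 ± 4.10 (n = 7), below microglia-like cells in every library. Ly96, which pairs with it, was at 81.2 ± 14.4 CPM (n = 5) in border-associated macrophage-like, 57.7 ± 6.83 (n = 8) in microglia-like and 50.7 ± 12.3 (n = 7) in monocyte-like cells, and the gap between the first of these and microglia-like cells exceeded their spread.

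Among the endosomal receptors, Tlr7 was highest in microglia-like cells, at 84.3 ± 16.6 CPM (SD, n = 8), above 60.3 ± 22.4 (n = 5) in border-associated macrophage-like and 58.3 ± 17.2 (n = 7) in monocyte-like cells in every library that had both. It was at 8.51 ± 6.43 CPM (n = 7) in dendritic cell-like cells, of which 68.5% was the estimate for leaked RNA. Tlr3 was at 54.9 ± 18.1 CPM (n = 8) in microglia-like, 30.6 ± 18.0 (n = 5) in border-associated macrophage-like and 29.9 ± 16.5 (n = 8) in endothelial-like cells. The estimate for leaked RNA was 91.1% of the level in border-associated macrophage-like cells, where it may include own RNA, and 11.7% in endothelial-like cells. The 65 astroglial-like cells of D0-3, the only library with enough of them, had 110.1 CPM. Tlr13 ran in another order, with 58.2 ± 27.8 CPM (n = 7) in neutrophil-like, 53.3 ± 18.3 (n = 7) in monocyte-like, 37.1 ± 18.3 (n = 8) in microglia-like and 36.0 ± 17.9 (n = 5) in border-associated macrophage-like cells, and these 4 were within the spread of their neighbours. That spread includes the differences between Ctrl, D0 and D2. Within libraries Tlr13 was above microglia-like cells in 6 of 7 for neutrophil-like and 6 of 7 for monocyte-like cells. For border-associated macrophage-like cells it was above in 0 of 5. Tlr9 stayed at 4.15 ± 2.46 CPM (n = 5) or less in all types, and in endothelial-like cells 0 UMIs of 4273372 were found, which allows up to 0.702 CPM. Myd88 was at 82.8 ± 37.6 CPM (n = 7) in neutrophil-like and 59.4 ± 19.3 (n = 7) in monocyte-like cells, the former above microglia-like cells (28.5 ± 7.81, n = 8) in 7 of 7 libraries.

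**Figure D4:**
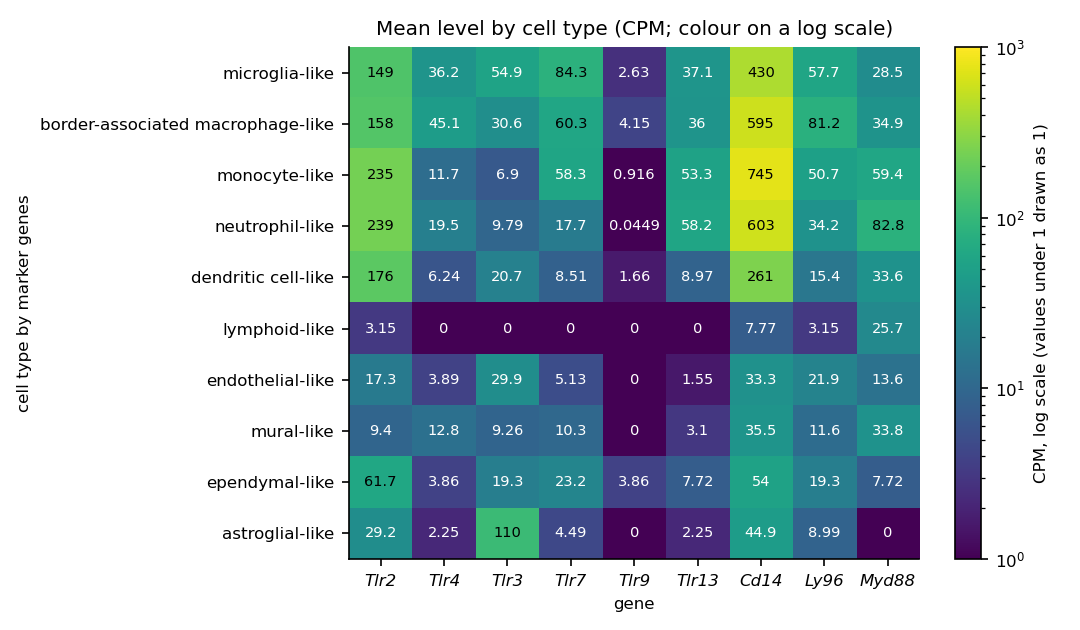
Mean CPM over libraries of each gene (columns) by cell type (rows), printed in each cell and coloured on a log scale. Tlr2 and Cd14 are high in all myeloid types, while Tlr7 and Tlr3 are low in neutrophil-like cells (17.7 and 9.79 CPM).

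The surface share of the 6 receptors was 80.7% ± 11.9 (SD, n = 7) in dendritic cell-like, 74.6% ± 11.1 (n = 7) in neutrophil-like, 65.5% ± 13.5 (n = 7) in monocyte-like, 61.7% ± 12.7 (n = 5) in border-associated macrophage-like and 50.7% ± 12.4 (n = 8) in microglia-like cells. Each mean was within the spread of the next, a spread that includes the differences between Ctrl, D0 and D2. Within libraries the share in microglia-like cells was below that of border-associated macrophage-like cells in 5 of 5 (by 5.83 to 29.5 points), of monocyte-like in 7 of 7 (by 1.01 to 32.4), of neutrophil-like in 7 of 7 (by 7.63 to 43.2) and of dendritic cell-like in 7 of 7 (by 12.98 to 39.9). The 2 surface genes differed in this. Mean Tlr2 was 40.8% of the 6 receptors in microglia-like cells, the lowest of these types. Mean Tlr4 was 9.90% there, above 3.14% in monocyte-like, 3.45% in dendritic cell-like and 6.32% in neutrophil-like cells. Only border-associated macrophage-like cells had more Tlr4 among these types, at 13.2%. Conditions could be set side by side in some of these types, without a test. The genes and types given are examples, and others overlapped. In monocyte-like cells the sum of Tlr2 and Tlr4 was 171 and 329 CPM in Ctrl-2 and Ctrl-3. It was 170, 403 and 306 in D0 and 178 and 170 in D2. In dendritic cell-like cells that sum was 124 and 273 CPM in Ctrl-1 and Ctrl-3. It was 102, 203 and 284 in D0 and 159 and 131 in D2. Tlr2 in neutrophil-like cells was at 422 and 332 CPM in Ctrl-2 and Ctrl-3, at 145, 200.3 and 308 in D0 and at 117 and 146 in D2. These D0 and D2 libraries were below Ctrl, but D0-3 was close to Ctrl-3, which had 33 such cells against 87 in Ctrl-2. Neutrophil-like cells join a cluster led by Slpi and Clec4d and another led by Camp and Ngp, whose shares per library were not compared. D2-3 was at 318 CPM. Cd14 in monocyte-like cells was at 416 and 489 CPM in Ctrl-2 and Ctrl-3 (119 and 35 cells), 604, 1247 and 1049 in D0 and 611 and 799.7 in D2. Every one of these D0 and D2 libraries was above Ctrl. In all these types the CPM have no factor between libraries, and the share of all genes that separate alike was not taken. In border-associated macrophage-like cells Tlr2 was at 136 ± 0.505 CPM (SD, n = 3) in Ctrl, 168 in D0-1 and 217 in D2-2, the last from 20 cells. The estimate for leaked RNA there was 29.4% of the level, which may include own RNA of the microglia genes it rests on.

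The members also differed among the 10 microglia-like clusters, which are numbered and described by their leading genes. Means over libraries pool Ctrl, D0 and D2, and the clusters did not all have the same libraries. Cluster 6, led by Dusp2, Gadd45b, Tnf and Cxcl2, had the highest Cd14 (983 CPM as the mean over libraries) and Tlr2 (312 CPM) of the 10, and with cluster 8 the lowest Tlr4 (24.7 and 21.3 CPM). In D0 alone the Tlr4 mean was 24.3 CPM in cluster 9 and 24.7 in cluster 6. Cluster 11, led by the interferon-induced genes Ifit3, Ifit2 and Isg15, had the highest mean Tlr3 (101 CPM). Its libraries were at 166 and 169 CPM in Ctrl, 50.4 to 87.4 in D0 and 72.7 and 101.5 in D2. In D0 and D2 it overlapped with other clusters. Cluster 4 was at 45.4 to 77.1 CPM in D0, and cluster 3 at 59.2 and 109.9 in D2. Cluster 8, the dividing cells led by Top2a and Mki67, had the lowest Cd14 (267 CPM), Tlr7 (50.6 CPM) and Ly96 (36.5 CPM). In each of the 5 D0 and D2 libraries Cd14 was lower in dividing clusters (239.96 to 279 CPM) than in the other microglia-like cells (461 to 622 CPM), and so was Tlr7 (41.6 to 59.8 against 62.1 to 94.1 CPM). Tlr2 was higher in the dividing clusters in 4 of the 5.

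**Figure D5:**
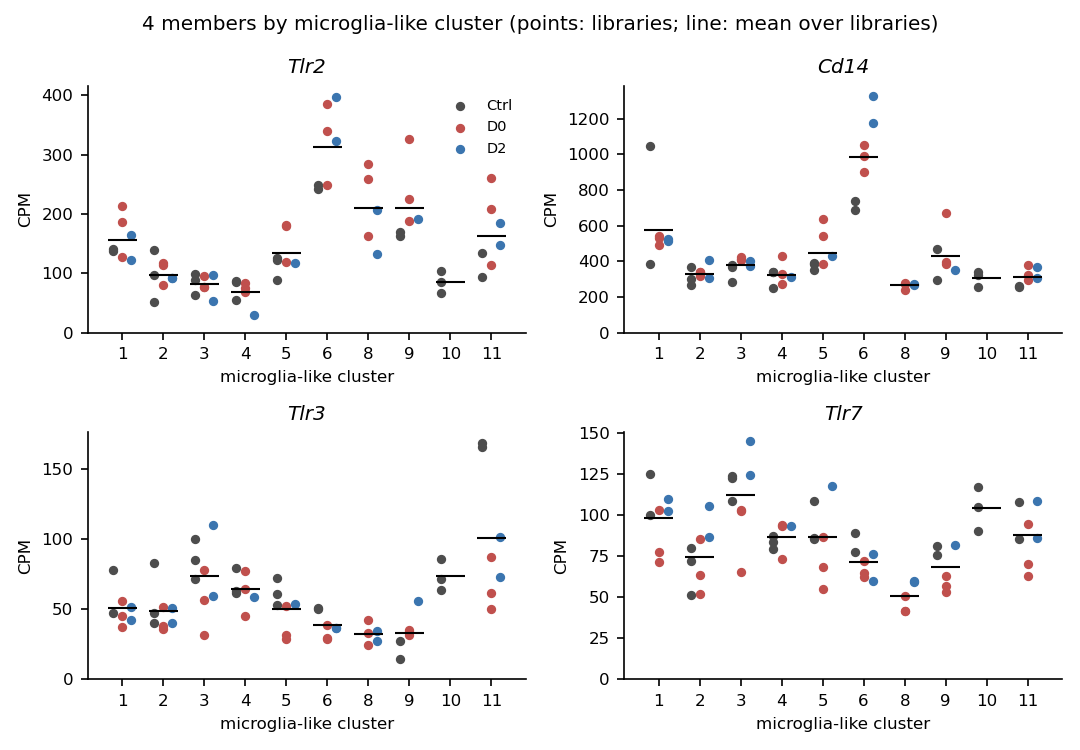
CPM of Tlr2, Cd14, Tlr3 and Tlr7 by microglia-like cluster, with 1 point per library of at least 20 cells and a line at the mean. By the mean, cluster 6 stands highest for Tlr2 and Cd14, cluster 11 for Tlr3, and cluster 8, which had enough cells in D0 and D2 libraries only, lowest for Cd14 and Tlr7.

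Ctrl and D0 could be set side by side within the 8 clusters that had at least 2 libraries of both, though the clusters held unequal numbers of cells per condition. Tlr4 and Tlr13 had a lower D0 mean in 8 of 8 clusters and did not overlap in 6 of 8 each. In cluster 3, for example, Tlr13 was at 54.8 to 82.6 CPM in Ctrl and 24.6 to 41.9 in D0, and Tlr4 at 60.9 to 64.6 and 34.9 to 40.7. Tlr2 had a higher D0 mean in 8 of 8 clusters but did not overlap in only 2, and in clusters 3 and 4 the means were alike (83.3 CPM in D0 against 83.1 in Ctrl, and 75.7 against 75.4). In D2 its mean was higher in 3 of 5 clusters and lower in 2, while Tlr4 and Tlr13 were lower in 5 of 5 each. Myd88 had a lower D0 mean in 5 of 8 clusters and a higher one in 3. Cd14 had a higher D0 mean in 7 of 8 and did not overlap in 3, among them cluster 6 with 902 to 1053 CPM in D0 and 690.1 to 739.8 in Ctrl. These values are on the CPM scale with no factor between libraries. Over all microglia-like cells the median log2 fold change of all genes was -0.259 in D0 on that scale. D0 therefore stands lower here than on the TMM scale, for Tlr2 as for Tlr4 and Tlr13. The share of all genes that were lower or did not overlap within clusters was not taken. Without the dividing clusters, where 1256 genes were called in D0 in place of 2455, Tlr3 (-0.53 ± 0.18, adjusted p = 0.0872) and Myd88 (-0.38 ± 0.13, adjusted p = 0.0989) kept their direction without a call, and the other 4 were called.

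Per cell, 49.2% of all microglia-like cells had a UMI of Tlr2, 82.4% of Cd14, 44.6% of Tlr7, 34.9% of Ly96, 31.5% of Tlr3, 24.2% of Tlr4, 23.6% of Tlr13, 20.1% of Myd88 and 1.98% of Tlr9, at a median of 7124 UMIs. Thinned to 2000 UMIs, with 20875 of 21785 cells left, the shares were 21.0% for Tlr2, 48.7% for Cd14, 16.1% for Tlr7, 11.6% for Ly96, 10.4% for Tlr3, 7.61% for Tlr4, 7.18% for Tlr13, 5.83% for Myd88 and 0.474% for Tlr9. In endothelial-like cells thinned alike (674 of 902 left, a median of 3646 UMIs before) they were 2.52% for Tlr2, 3.26% for Cd14, 4.75% for Tlr3, 4.75% for Ly96 and under 2% for the rest. After thinning, 12.8%, 17.9% and 19.8% of microglia-like cells had a UMI of Tlr2 in Ctrl, 18.4%, 28.8% and 26.7% in D0 and 24.1% and 19.0% in D2. Here D0-1 and D2-2 lay within the range of Ctrl. For Tlr13 the shares ran from 9.44% in Ctrl-1 to 12.05% in Ctrl-2, with 5.24%, 3.81% and 6.27% in D0 and 4.58% and 3.47% in D2, without overlap. Cd14 stood at 43.3%, 50.8% and 47.9% in Ctrl and between 48.1% and 51.8% in D0 and D2, which overlap.

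A list of 63 other genes of the pathway was examined in the same fit, of which 59 could be tested. In D0, 14 of them were called higher and 4 lower, and in D2 7 and 3, beside 12.4% and 7.45% of all genes in D0 and 10.8% and 7.76% in D2. Of the 6 other Toll-like receptors, Tlr5, the receptor for flagellin, fell from 6.01, 9.02 and 7.82 TMM-scaled CPM in Ctrl to 1.35, 1.02 and 1.91 in D0 and 1.00 and 0.593 in D2. Its log2 fold change was -2.44 ± 0.29 (SE; adjusted p = 3.64e-04, edgeR) and -3.19 ± 0.37 (adjusted p = 3.74e-04), called in every alternative. Tlr1 (14.5 ± 0.938 in Ctrl and 17.4 ± 3.04 in D0), Tlr6 (14.8 ± 2.51 and 10.5 ± 2.33) and Tlr12 (23.9 ± 1.09 and 19.9 ± 2.07, SD, n = 3 each) were not called by edgeR in either comparison. In D2-1 and D2-2 they were at 23.7 and 18.4, 9.52 and 10.9, and 19.5 and 14.2 TMM-scaled CPM, and DESeq2 called Tlr1 higher in D2, while Tlr8 and Tlr11 were too low to test.

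Among 4 accessory genes was Cd36, a scavenger receptor that works with TLR2. It was at 0.202 to 0.426 TMM-scaled CPM in Ctrl, 7.90 to 13.1 in D0 and 3.36 and 25.9 in D2. Cd36 rose in both (adjusted p = 0.00174 and 0.00140, edgeR), from a Ctrl level that rests on few UMIs per library. Ly86, partner of the TLR4-like CD180, rose in D0 (0.59 ± 0.15 on the log2 scale, adjusted p = 0.0244), a call kept in 16 of 22 alternatives. Of 6 genes that fold or carry receptors to their places, the chaperone Hsp90b1 rose in D0 (0.46 ± 0.14, adjusted p = 0.0450) and D2 (0.65 ± 0.16, adjusted p = 0.0176) and Cnpy4 in D0 (0.53 ± 0.15, adjusted p = 0.0321). Of the 22 alternatives, Hsp90b1 was called in 9 for D0 and 17 for D2, and Cnpy4 in 12. Of 5 other adaptors, 1 was called: Tirap, which bridges MYD88 to TLR2 and TLR4, fell in D0 (by 0.61 ± 0.18, adjusted p = 0.0377). Its call was kept in 12 of 22 alternatives.

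Among the 13 kinases and their partners, Map3k8 rose (0.91 ± 0.22, adjusted p = 0.0198) and Chuk fell (by 0.40 ± 0.12, adjusted p = 0.0475) in D0, and the other 11 were not called. Map3k8 was called in 19 of the 22 alternatives and Chuk in 11. Of the 5 ubiquitin enzymes and TRAF genes 0 were called by edgeR or DESeq2 in either comparison, and 1 had an unadjusted p under 0.05 in each (edgeR). Of 5 inhibitors, Sigirr rose in D0 from 0.169 to 0.310 TMM-scaled CPM to 0.595 to 1.12 (adjusted p = 0.0152, edgeR). Its Ctrl level rests on few UMIs per library. In D2 Irak3 rose (0.92 ± 0.26, adjusted p = 0.0391) and Tollip fell (by 0.66 ± 0.20, adjusted p = 0.0494). The calls were kept in 19 of 21 alternatives for Sigirr, 12 of 22 for Irak3 and only 6 of 22 for Tollip. Of 5 transcription factors, Irf7, which acts downstream of the nucleic acid receptors, rose from 4.49 to 5.53 TMM-scaled CPM among Ctrl libraries to between 12.6 and 19.9 in D0 and 18.9 and 15.3 in D2 (adjusted p = 2.82e-04 and 4.65e-04). Rela, a subunit of NF-κB, fell in D0 (by 0.43 ± 0.13, adjusted p = 0.0462) and in D2 (by 0.52 ± 0.15, adjusted p = 0.0382), calls lost in 11 and 9 of the 22 alternatives, among them the version as a term and leaving out the dividing clusters.

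Of 14 target genes of the receptors, 13 could be tested. In D0 7 were called higher and none lower, beside 12.4% and 7.45% of all genes tested. In D2 3 were called higher and none lower, beside 10.8% and 7.76%. Il1b, an inflammatory cytokine, was at 65.2, 138 and 179.7 TMM-scaled CPM in Ctrl, 571, 1575 and 1048 in D0 and 835 and 819 in D2 (log2 fold changes of 3.06 ± 0.42 and 2.70 ± 0.44, adjusted p = 9.58e-04 and 0.00256). Cxcl10, a chemokine, rose by 2.94 ± 0.59 (adjusted p = 0.00841) and 2.40 ± 0.62 (adjusted p = 0.0241) on the log2 scale. Il12b rose in D0 (2.78 ± 0.73, adjusted p = 0.0266), and Ptgs2, which makes prostaglandins, in D0 (2.32 ± 0.39, adjusted p = 0.00316) and D2 (1.88 ± 0.42, adjusted p = 0.0128). The Il12b call was kept in 16 of 22 alternatives.

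The genes most like each member were sought over 52 sums of library and cell type, by Pearson's r of log2(CPM + 1) among 7253 genes. The sums share libraries and depth, so r is a description. Among the closest to Tlr2 were Spi1 (0.93) and Ptafr (0.91), among those to Cd14 were Clec4a2 (0.92) and Spi1 (0.92), and among those to Tlr13 were Nfam1 (0.88) and I830077J02Rik (0.87). Tlr7 was closest to Csf1r (0.87), Ctsb (0.86) and Lamp2 (0.85), and Tlr4 to Lamp2 (0.76), Marcks (0.74) and Tns3 (0.74). Tlr3 was closest to Abhd6 (0.83), Dpy19l4 (0.82) and Cttnbp2nl (0.82), Tlr9 to Aif1 (0.74), Tlr1 (0.73) and Bmp2k (0.73), Ly96 to Ftl1-ps1 (0.84), Vsir (0.80) and Galc (0.79), and Myd88 to Capzb (0.78), Litaf (0.76) and Cap1 (0.75).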

How the data were processed

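CD11b+ brain cells were profiled with the 10x Genomics 3′ v3 kit. The authors mapped reads to mm10 with Cell Ranger (3.1.0 per the labels, 3.0.2 for 6 libraries per the file headers) and deposited raw UMI counts per gene and called cell, neither normalized nor filtered further. UMIs come from the 3′ end, so levels of different genes need no division by length. Cells were kept if they had 500 to 20000 UMIs, 200 genes or more, and no more than 10% of UMIs from mitochondrial genes. Barcodes over the upper limit made up 1.20% (D0-1) to 24.2% (D0-3) of the 8 libraries and 37.3% of D2-3. Median UMIs of kept microglia-like cells ran from 5375.5 (D0-1) to 10484 (D0-3) in the 8 libraries. A fit without the upper limit was among the alternatives. No doublet caller was run. Cells were clustered (scanpy 1.11.5, leidenalg 0.10.2, python 3.11.15; 3000 variable genes, 10 principal components, 20 neighbours, resolution 0.6), first all together and then without neutrophil-like, lymphoid-like and non-immune clusters, with 58 receptor and pathway genes left out. A cluster took the name of another type if at least 3 of its markers were raised over all other cells. Otherwise it was named microglia-like if at least 3 microglia markers reached 100 CPM, whether raised or not. Clusters of low depth with no marker among their leading genes stayed unnamed. Such rebuilt names may not match the study's. D2-3 was placed by 30 nearest neighbours. The study tested single cells; here UMIs were summed per library, since cells are not replicates, and tested with edgeR 4.0.16 (R 4.3.3; TMM, filterByExpr, quasi-likelihood, Benjamini-Hochberg over all genes), with the 3 groups in 1 fit and calls at an adjusted p under 0.05; SE is the fold change over the root of F. The labels do not say how libraries were batched. Alternatives were DESeq2 1.42.0, RLE scaling, library totals, no filter, each library left out, D2-3, a replicate block, the Cell Ranger version, 2 groups only, other cell sets, thinning to 2000 UMIs and resolutions of 0.3 and 1.0. The test was run before use on simulated data with 200 genes changed by 1 or 2 on the log2 scale and the same spread for every gene. That does not show how it handles smaller changes or the spread of these libraries. Levels by type and the surface share had no test. The depth of 12066977 to 35948778 UMIs in microglia-like cells per library limits low genes such as Tlr9, and Sigirr and Cd36 lay lower still in Ctrl. Gene positions are from GENCODE M21 (30934 of 31053 genes matched by identifier) and promoters from RefSeq (GRCm38.p6). Genes were named by rule: the 9 members, the other Toll-like receptors, up to 3 called genes per group and direction of the pathway list, and 3 most like genes per member, of which 1 gene is not reported here. The members, lists and tests were chosen with earlier results of these data known.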

Additional observations from a re-analysis of the deposited data

Results flagged for a closer look

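D2-3, which enters no comparison above, had 2 members above every Ctrl library in its 640 microglia-like cells: Tlr2 at 332 TMM-scaled CPM, against 61.2 to 110.1 in Ctrl, and Cd14 at 413, against 253 to 361. Of these cells 559 were in dividing clusters. Its other members lay below every Ctrl library (Tlr4 14.7, Tlr3 40.3, Tlr7 34.4, Tlr9 0.184, Tlr13 23.4, Ly96 22.6 and Myd88 22.8 TMM-scaled CPM). The share of all genes that lay above or below every Ctrl library in D2-3 was not taken. These counts are thus given as values only.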

How the results depend on the processing

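Of the 22 alternatives to each comparison, those that changed a count of members, or moved one of all genes by over 1.5 times, are given here, and the cause was not tested. The genes called in D0 (2455) became 3808 with library totals, 1374 with a term for the Cell Ranger version, 1256 without dividing clusters, 1309 after thinning and 510 with D2-3, and those called in D2 (2306) became 1185, 1416, 1396 and 1315 in the last 4 of these. Leaving out 1 library gave 1231 to 2522 in D0 and 1117 to 3096 in D2. Members called higher in D0 (2) were 0 with D2-3 and 0 to 2 with 1 library left out. Members called lower in D0 (4) were 5 with library totals, 3 without a filter, 3 after thinning, 2 with RLE scaling, 2 with the version, 2 with the 2 groups compared alone, 2 without dividing clusters, 1 with D2-3 and 1 to 4 with 1 library left out. Members called higher in D2 (0) were 1 with DESeq2, 2 without a filter, 1 with the version, 2 with a replicate block and 0 to 1 with 1 library left out, and those lower (3) were 2 with the version and 1 to 3 with 1 library left out. Between D2 and D0 (0 genes) DESeq2 called 27 and the fit without a filter 41. The mean surface share in D2 (53.4%) was 61.5% with D2-3, and with 1 library left out the share ran from 36.5% to 42.2% (Ctrl), 56.3% to 67.2% (D0) and 49.8% to 56.9% (D2). Dendritic cell-like and border-associated macrophage-like cells were separate at resolutions of 0.6 (605 and 588 cells) and 1.0. At 0.3 no cluster was named dendritic cell-like. A border-associated macrophage-like cluster of 1194 cells was then led by H2-Eb1 and H2-Aa. Separate levels and surface shares of these 2 types thus depend on the resolution. Log2 fold changes near 0 changed sign without a call. Ly96 in D0 was 0.0626 without dividing clusters and -0.0881 to 0.0749 with 1 library left out, and in D2 -0.2574 to 0.0185 with 1 left out. Tlr7 in D2 was 0.0808 without dividing clusters, 0.0742 after thinning and -0.0842 to 0.0707 with 1 left out. Between D2 and D0, Tlr2 (0.0821) and Tlr7 (-0.042) turned with D2-3, and with 1 library left out Tlr4 ran from -0.2984 to 0.0144 and Ly96 from -0.2269 to 0.0324.

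Deviations of libraries with the same number correlated with r of 0.41, 0.188 and 0.169 for Ctrl and D0, but 0.0464 and 0.073 for Ctrl and D2 and -0.124 and 0.264 for D0 and D2, and the labels give no pairing. Between libraries with different numbers r ran from -0.381 (Ctrl-3 and D0-1) to 0.344 (D0-3 and D2-1), with 0.301 for Ctrl-3 and D0-2. Deviations within a group sum to 0, so these values are not independent and do not show a pairing. A replicate block gave 2864 genes in D0 and 2301 for D2, and no member changed its call in D0. Tlr2 (1.03, adjusted p = 0.0441) and Cd14 (0.58, adjusted p = 0.0150) were then called in D2.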

Other observations

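Tlr8, an endosomal receptor for RNA, was at 21.9 ± 11.6 CPM (SD, n = 5) in border-associated macrophage-like, 18.3 ± 14.6 (n = 7) in monocyte-like and 6.88 ± 3.71 (n = 7) in neutrophil-like cells, while 4 UMIs were counted in all 21785 microglia-like cells of the 8 libraries (0.0325 ± 0.0580 CPM, n = 8). Tlr1, which works with TLR2, ranged from 13.2 to 199 CPM over 5 libraries in border-associated macrophage-like cells and at 17.2 ± 3.41 CPM (n = 8) in microglia-like cells. Tlr12 was at 20.8 ± 4.65 CPM (n = 8) in microglia-like, 12.1 ± 9.86 (n = 5) in border-associated macrophage-like and 1.94 ± 3.90 (n = 7) in monocyte-like cells. These were chosen after their values were seen and are given as values, with no test.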
